A study of Mus musculus with 2 samples.

Results

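The colony-stimulating factors and their receptors were followed in healing skin wounds of aged and young mice. The set holds 8 of the 33696 genes in the count tables, taken by symbol: the ligands Csf1, Csf2, Csf3 and Il34 and the receptor genes Csf1r, Csf2ra, Csf2rb and Csf3r. Each symbol matched exactly 1 gene. The cells came from full-thickness wounds of 10 mm on the back, collected at day 6 from wild-type male mice of the inbred strain C57BL/6. The aged group was 1 library from mice of 24 months, and the young group was 1 library from mice of 2 months. Several animals were pooled in each library and total wound cells were loaded, after enzymes had freed them from the tissue, red blood cells had been lysed and the suspension had been filtered. Neither age has an unwounded sample here. Age, the pooled animals and the preparation cannot be told apart, no replicate check exists, and every interval below is a 95% interval that covers counting error only.

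Colony-stimulating factors are secreted proteins that keep myeloid cells alive and make them divide and mature. Csf1 encodes M-CSF and Il34 encodes interleukin 34, and both bind the receptor tyrosine kinase encoded by Csf1r on monocytes and macrophages. In intact skin, interleukin 34 from keratinocytes sustains Langerhans cells. Csf2 encodes GM-CSF, which binds an alpha chain from Csf2ra that pairs with the signalling chain from Csf2rb, the chain shared with the interleukin 3 and interleukin 5 receptors. Csf3 encodes G-CSF, which acts through the receptor from Csf3r and drives neutrophil production and release. Mice carry a near copy of the shared chain gene, Csf2rb2, whose product serves interleukin 3.

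Messages of the inducible ligands carry AU-rich stretches in the 3′ untranslated region, bound by decay proteins such as the Zfp36 product, and these are shown for the 3 ligands with the most UMIs. The stretches of 30 bases richest in the pentamer ATTTA, taken from GENCODE release M21 on GRCm38 and written 5′ to 3′ in the sense of the message, have every ATTTA in capitals.
Csf2: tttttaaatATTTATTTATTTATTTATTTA
Csf3: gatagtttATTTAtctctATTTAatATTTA
Csf1: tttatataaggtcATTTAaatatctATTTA
They lie at chr11:54247329-54247358 on the minus strand for Csf2, chr11:98702984-98703013 on the plus strand for Csf3 and chr3:107741109-107741138 on the minus strand for Csf1. The 3′ untranslated region of Csf2 holds 9 overlapping or separate ATTTA pentamers in 317 bases, that of Csf3 holds 6 in 669 bases and that of Csf1 holds 4 in 2111 bases. Of the 8 genes, only Csf2 has the nonamer TTATTTATT, in 4 copies, a motif found in 7.67% of the 20982 genes with such a region. At least 5 pentamers occur in 21.6% of these genes. The receptor genes Csf2ra, Csf2rb and Csf3r have no ATTTA in theirs. On the same annotation Csf2, at chr11:54247271-54249667, and Il34, at chr8:110741829-110805924, overlap genes on the opposite strand, as does Csf1r, and whether strand was used in counting is not given in the sources used here.

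The aged library kept 4210 of 4379 cells and 107577591 UMIs (molecules counted by their barcode), and the young library 4661 of 4932 cells and 111268003 UMIs, with medians of 13776 and 15566 UMIs a cell. Cells were named from marker genes that exclude the 8 genes, and a name ends in -like because it rests on a threshold on marker scores. Fibroblast-like cells numbered 1485 in the aged and 1588 in the young library, macrophage/monocyte-like cells 1209 and 859, neutrophil-like cells 971 and 1405, T/NK-like cells 45 and 332, dendritic-like cells 47 and 24, and endothelial-like cells 53 and 72. Keratinocyte-like cells numbered 1 and 10, so the keratinocyte source of interleukin 34 was sampled by few cells, and its level is not given. Unassigned cells numbered 358 and 270. Within 0.02 of the required lead in marker score lay 27 aged and 35 young macrophage/monocyte-like cells, 9 and 18 neutrophil-like cells, and 4 and 0 fibroblast-like cells. The doublet caller marked 2 aged and 3 young cells, too few for it to have worked, so doublets remain. The libraries shared 3 cell barcodes.

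Levels are given in CPM, the UMIs of a gene over all UMIs of the cells concerned at the scale usual for such counts, with the aged to young ratio beside them. Over all cells, 2 of the 8 genes were at least 1.5-fold lower in the aged library, Csf3 at 0.413 (0.406 to 0.421) and Csf3r at 0.487 (0.467 to 0.509), against a background of 10.5% of 20121 genes with 20 or more UMIs. None was 1.5-fold higher, where the background was 11.0%. The other ratios ran between 0.774 for Csf2ra and 1.17 for Csf1r. Over all genes the median log2 ratio was 0.07. Within classes that background shift was 0.06 in fibroblast-like, 0.21 in macrophage/monocyte-like and 0.08 in neutrophil-like cells, so ratios in macrophage/monocyte-like cells are read against a general shift upwards.

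**Figure D1:**
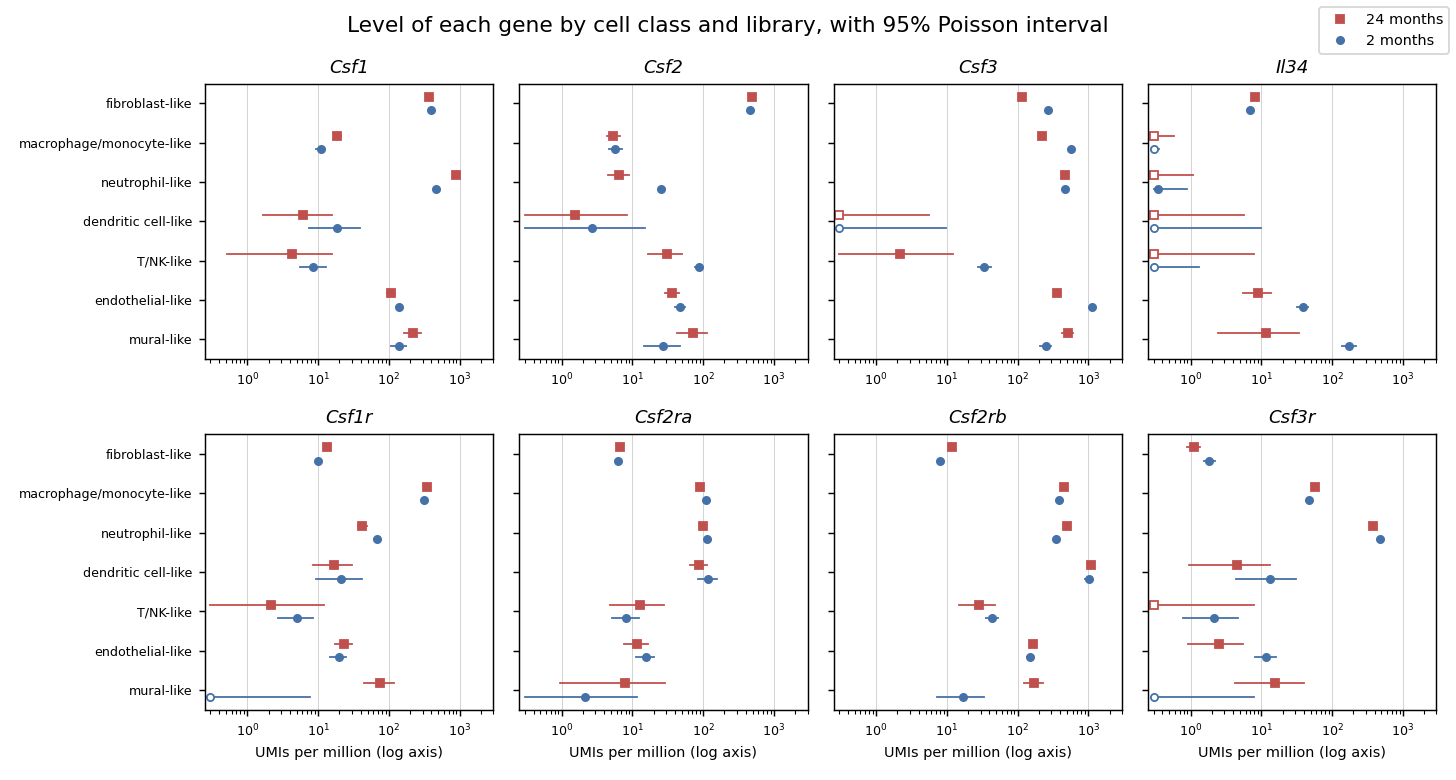
Level of each of the 8 genes (CPM, log axis) in 7 cell classes, with aged (24 months) squares above young (2 months) circles and lines for the 95% Poisson interval. Open symbols at the left edge mark a level at or below 0.3 CPM, mostly 0 UMIs; Csf2 stands out in fibroblast-like cells, Csf3r in neutrophil-like cells and Csf1r in macrophage/monocyte-like cells, while Csf1 and Csf3 have several sources.

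Among the ligands, Csf2 came almost wholly from fibroblast-like cells. These cells held 38163 of the 38674 aged Csf2 UMIs and 32697 of the 34388 young ones, 98.7% and 95.1%. The level was 494.5 CPM in aged and 459 CPM in young fibroblast-like cells, with a ratio of 1.08 (1.06 to 1.09). That is close to the median of all genes in the class, and with the clusters below held at their aged mix the ratio was 0.962, so no direction is given.

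Outside fibroblast-like cells Csf2 was sparse. Dendritic-like cells had 1 UMI in each library, macrophage/monocyte-like cells 5.39 CPM in the aged and 5.72 CPM in the young library, and neutrophil-like cells 6.46 and 25.5 CPM. Of the 296 young neutrophil-like UMIs, 82.1% sat in 10 cells. T/NK-like cells, a known source of GM-CSF, had 30.3 CPM on 14 UMIs in the aged library and 86.7 CPM on 242 UMIs in the young library. A further view by cluster placed 198 young Csf2 UMIs in a cluster led by Trdv4 and Il17a, which held 1 aged and 214 young cells and so may be a feature of the young library. Unassigned cells had 68.3 and 209 CPM, the largest single part of the Csf2 outside the fibroblast-like class, with 253 aged and 864 young UMIs.

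The fibroblast-like source of Csf2 was a minority of cells with many molecules each. Of the aged fibroblast-like cells 624 had a Csf2 UMI and of the young ones 543, with a median of 37 UMIs in such a cell in both libraries and a highest value of 480 in the aged and 574 in the young library. The 98 highest aged cells and the 80 highest young cells, 6.60% and 5.04% of the class, held 50% of its Csf2 UMIs. For Csf1 in the same cells, 10.6% of aged and 10.8% of young cells held that share. Cells with 2000 or more UMIs were thinned to 2000, and those with fewer were left out. After this, 27.5% of aged (25.2 to 29.9) and 22.7% of young (20.7 to 24.9) fibroblast-like cells had a Csf2 UMI. Before thinning it was 42.0% and 34.2% of all fibroblast-like cells. The share in macrophage/monocyte-like cells, taken as the level that stray RNA can give, was 0.701% and 0.725%, at median depths of 12730 and 16128 UMIs, whereas fibroblast-like cells had 49589 and 41964.

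**Figure D2:**
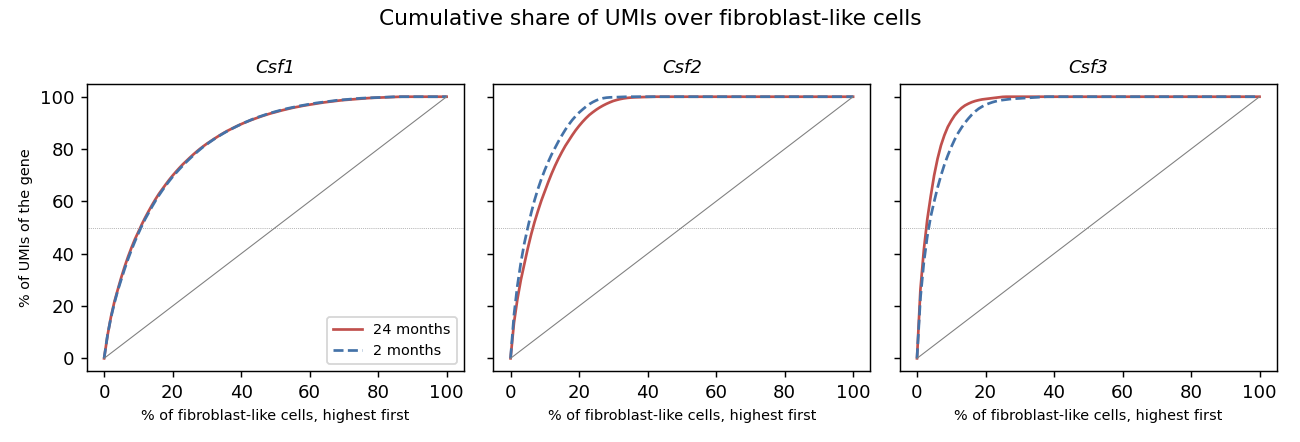
Cumulative share of the UMIs of Csf1, Csf2 and Csf3 (vertical axis, %) over fibroblast-like cells sorted from the highest (horizontal axis, %), with the aged library as a solid and the young library as a dashed line. The dotted line marks 50%, which Csf3 reaches in 2.76% of aged and 3.46% of young cells, Csf2 in 6.60% and 5.04%, and Csf1 in 10.6% and 10.8%.

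The cells rich in Csf2 were looked at for their other genes within the fibroblast-like class. The 457 aged and 410 young fibroblast-like cells with 10 or more Csf2 UMIs all had Col1a1, the fibrillar collagen gene, at 15607 and 18295 CPM. The pan-leukocyte gene Ptprc stood at 4.64 and 8.20 CPM in them, and Cd3e of the T cell receptor complex at 1 and 13 UMIs in all. Other leukocyte genes were found there too, the myeloid lysozyme gene Lyz2 at 32.2 CPM in aged and 77.4 CPM in young cells, S100a8 of neutrophils at 19.5 and 34.9 CPM, and Il17a at 1 and 195 UMIs. In cells without a Csf2 UMI Lyz2 stood at 53.3 CPM in the aged and 55.6 CPM in the young library and S100a8 at 25.3 and 105 CPM, and the part of this RNA in the Csf2 level was not tested. Set beside the 861 aged and 1045 young cells without a Csf2 UMI, they held more of the cytokine messages Tslp, Il11 and Lif. Tslp, an alarmin best known from epithelial cells, had 247 CPM in aged cells rich in Csf2 and 63.4 CPM in aged cells without it, and 211 and 27.5 CPM in the young cells. Il11, of the interleukin 6 family, had 303 and 115 CPM in the aged and 382 and 70.0 CPM in the young cells. Lif had 215 and 112 CPM in the aged cells and 212 and 91.1 CPM in the young cells. Il1r1, the interleukin 1 receptor, had 551 and 600 CPM in the aged and 646 and 718 CPM in the young cells. These genes were picked with their values in view, and the cells rich in Csf2 were also deeper, at medians of 58932 and 50250 UMIs against 43013 and 37630.

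Clusters of both libraries, built without the 8 genes, split the fibroblast-like cells further. Csf2 was highest among aged cells in the cluster led by Igfbp5, Itm2a and Ccn3, at 1221 CPM on 121 aged cells, against 466 CPM on 23 young cells, with a ratio of 2.62 (2.38 to 2.89). For the cluster led by Prl2c3 and Il11 the level was 483 CPM in aged and 952 CPM in young cells, with a ratio of 0.507 (0.487 to 0.528). Within the cluster led by Serpinb2 and Saa3 Csf2 stood at 678 CPM in the aged and 841 CPM in the young library. These 3 clusters thus had ratios on both sides of 1, although the class as a whole differed little. The first of them is mostly of the aged library and may be a feature of it. Dividing cells, in the cluster led by Top2a, had 534 and 543 CPM. At the low end, the cluster led by Igfbp2 and Coch had 3 aged UMIs in 29 cells, 1.85 CPM, and 31.3 CPM in 111 young cells.

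**Figure D3:**
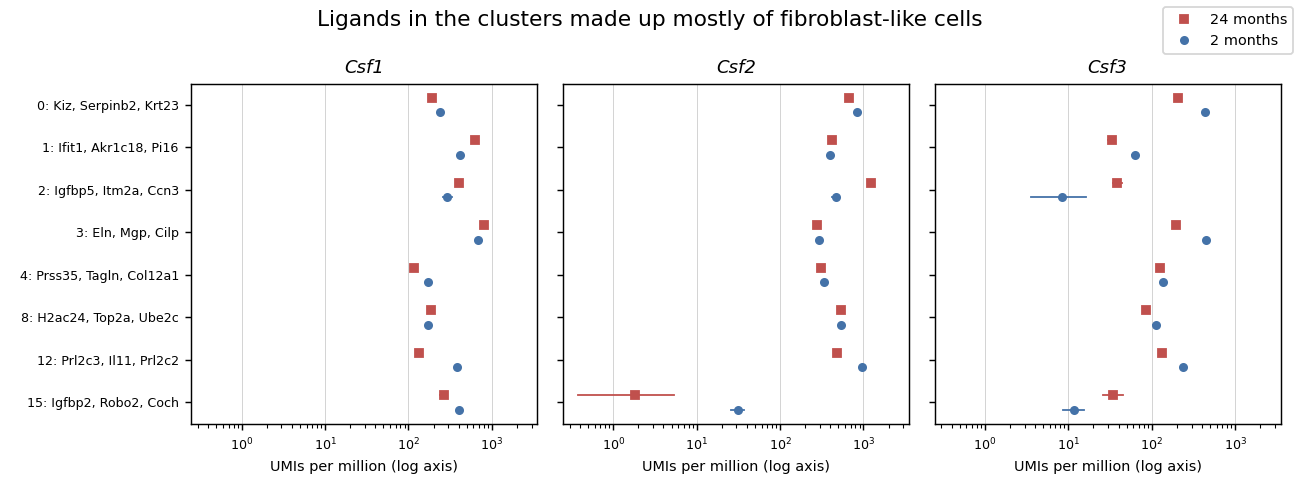
Level of Csf1, Csf2 and Csf3 (CPM, log axis) in the 8 clusters made up mostly of fibroblast-like cells, each labelled by its number and 3 leading genes, with aged squares above young circles and 95% Poisson intervals. Csf2 is at or above 277 CPM in 7 of the 8 clusters and lowest in the cluster led by Igfbp2, while Csf1 is highest in the cluster led by Eln.

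Csf1 had 2 main sources, fibroblast-like and neutrophil-like cells. Fibroblast-like cells held 83.6% of its aged and 80.6% of its young UMIs, and neutrophil-like cells 13.6% and 15.4%. In fibroblast-like cells the level was 369 CPM in the aged and 393 CPM in the young library, with a ratio of 0.941 (0.926 to 0.957). At the aged cluster mix it was 1.07, so here too no direction is given. Its level was highest in the cluster led by Eln, Mgp and Cilp, genes of the extracellular matrix, at 808 and 683 CPM. Next came the cluster led by Ifit1 and Pi16 at 634 CPM in aged and 416.5 CPM in young cells, with a ratio of 1.52 (1.46 to 1.59). At the low end, the cluster led by Prss35, Tagln and Acta2, genes of contractile fibroblasts, had 117.5 and 171 CPM. For the cluster led by Prl2c3 and Il11 the values were 133 CPM in aged and 378 CPM in young cells, with a ratio of 0.352 (0.328 to 0.377), the lowest Csf1 ratio among the 8 fibroblast clusters.

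In neutrophil-like cells the Csf1 level was 905 CPM in the aged library and 460 CPM in the young library, with a ratio of 1.97 (1.89 to 2.05). Thinned to 2000 UMIs, without the cells that had fewer, 52.0% of aged (48.7 to 55.4) and 40.2% of young (37.5 to 42.9) neutrophil-like cells had a Csf1 UMI. Before thinning 63.1% and 60.8% of all neutrophil-like cells did. In macrophage/monocyte-like cells the thinned share was 1.93% and 1.57%, and in T/NK-like cells 2.27% and 1.52%. Fibroblast markers, all 8 of 8 detected in neutrophil-like cells of both libraries, summed to 236 CPM in the aged and 286 CPM in the young cells there, against 61594 and 69892 CPM in fibroblast-like cells. The Csf1 level of neutrophil-like cells, as a share of UMIs, was above that of fibroblast-like cells in both libraries. In molecules per cell the order was the reverse, with a median of 4 UMIs in neutrophil-like and 10 in fibroblast-like cells with a Csf1 UMI, in both libraries.

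Of the 3 neutrophil clusters with 100 or more cells, 1 stood apart in its Csf1 ratio; a further one of 23 aged and 42 young cells held 3 and 2 Csf1 UMIs. In the cluster led by Cass4 and Hcar2, Csf1 had 1435 CPM in 424 aged cells and 570 CPM in 144 young cells, with a ratio of 2.52 (2.26 to 2.81). That led by Il23a and Tnf had 557 and 493 CPM, with a ratio of 1.13 (1.05 to 1.21). That led by Cxcr2 and Retnlg had 592 and 510 CPM, with a ratio of 1.16 (1.06 to 1.27). With the young levels of each cluster weighted by the aged mix of clusters, the class ratio was 1.73.

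Macrophages held little Csf1. It stood at 18.7 CPM in aged and 10.9 CPM in young macrophage/monocyte-like cells, with a ratio of 1.72 (1.43 to 2.09), and the 10 highest cells held 58.6% of the aged and 46.1% of the young UMIs. Without those 10 cells in each library the ratio was 1.32, and over cells named by cluster instead it was 0.844, so its direction rests on how the class is cut. Endothelial-like cells had 108 CPM in the aged and 140 CPM in the young library.

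Csf3 was spread over more cell types than the other ligands and was lower in the aged library in most of them. Fibroblast-like cells held 53.4% of the aged and 45.3% of the young UMIs, macrophage/monocyte-like cells 22.5% and 20.7%, neutrophil-like cells 14.1% and 12.9%, and endothelial-like cells 5.0% and 8.41%. In fibroblast-like cells its level was 117 CPM in the aged and 269 CPM in the young library, with a ratio of 0.435 (0.424 to 0.446). Aged macrophage/monocyte-like cells had 219 CPM and young ones 570 CPM, with a ratio of 0.383 (0.369 to 0.398). The level in endothelial-like cells was 359 and 1143 CPM, with a ratio of 0.314 (0.291 to 0.339). Lymphatic endothelial-like cells had 220.5 CPM on 21 UMIs in 6 aged cells and 1200 CPM on 784 UMIs in 21 young cells. Of the young UMIs 472 sat in 1 cell. Neutrophil-like cells stood apart at 468 CPM in the aged and 471.5 CPM in the young library, with a ratio of 0.992 (0.945 to 1.04). In the 5 aged and 23 young mural-like cells Csf3 stood at 516 and 251 CPM, but 1 aged cell held 128 of the 131 aged UMIs. Macrophage/monocyte markers in those cells summed to 2944 CPM with 12 of 12 detected in the aged and 10.6 CPM with 3 of 12 detected in the young library, and their part in that level was not tested. Holding the classes at the aged mix left the all-cell ratio at 0.425, near the 0.413 measured.

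Dendritic-like and T/NK-like cells are given as a background for Csf3, and they differed in the young library. Dendritic-like cells had 0 UMIs in either library, of 656727 aged and 373791 young UMIs, which allows up to 4.57 and 8.03 CPM (3 counts). T/NK-like cells had 1 UMI in 45 aged cells, 2.164 CPM, and 95 UMIs in 332 young cells, 34.03 CPM. Of these 95 UMIs, 58 sat in 1 of the 9 young cells with a Csf3 UMI. The part of stray RNA in that young level was not tested. Thinned shares of cells with a Csf3 UMI were 10.1% of aged (8.59 to 11.8) and 16.2% of young (14.4 to 18.1) fibroblast-like cells. They were 16% (13.9 to 18.2) and 27.5% (24.5 to 30.7) of macrophage/monocyte-like cells, and 22.1% (19.4 to 24.9) and 23.3% (21 to 25.7) of neutrophil-like cells. Molecules per cell also differed, since the median in macrophage/monocyte-like cells with a UMI was 6 in the aged and 12 in the young library. Neutrophil markers in fibroblast-like cells, with 9 of 9 detected in both libraries, summed to 103 CPM in the aged and 263 CPM in the young cells, against 55669 and 86028 CPM in neutrophil-like cells. In macrophage/monocyte-like cells those markers summed to 503 and 987 CPM, with 9 and 8 of 9 detected. Their part in the Csf3 difference was not tested.

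Among macrophage clusters the level of Csf3 ranged widely. It was highest in the cluster led by Mmp12, Stfa3 and Il1a, 49.2% of whose cells were macrophage/monocyte-like, at 574 CPM in 203 aged and 1940 CPM in 248 young cells, with a ratio of 0.296 (0.280 to 0.313). Cells of the cluster led by Arg1 and Tbxas1 held almost none, 1.86 CPM on 8 aged UMIs and 17.2 CPM on 57 young UMIs. In the cluster led by Ms4a7 and C1qa the levels were closer, 325 and 405 CPM, with a ratio of 0.802 (0.746 to 0.862). When the class was split at the marker scores, the side nearer to Ly6c2 monocytes had 188 CPM in aged and 829 CPM in young cells, with a ratio of 0.227 (0.208 to 0.247). The side nearer to C1q macrophages had 226 and 459 CPM, with a ratio of 0.491 (0.470 to 0.514). Within 0.05 of that split lay 57 aged and 31 young cells on the Ly6c2 side and 27 and 23 on the C1q side. Chil3 is 1 of the 6 markers of the Ly6c2 side, and it stood at 50.4 CPM in aged and 663 CPM in young macrophage/monocyte-like cells. The sides thus rest in part on a gene that differed between the libraries, and its part in these ratios was not tested.

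Among fibroblast and neutrophil clusters the Csf3 ratio also varied. In the cluster led by Eln there were 195 CPM in aged and 448 CPM in young cells, with a ratio of 0.435 (0.416 to 0.454). In that led by Prss35 and Tagln Csf3 stood at 124 and 138 CPM, with a ratio of 0.900 (0.841 to 0.962). The small cluster led by Igfbp2 ran the other way at 34.4 and 11.8 CPM. Among neutrophils the cluster led by Il23a and Tnf had 870 CPM in aged and 628 CPM in young cells, with a ratio of 1.39 (1.31 to 1.47), whereas the cluster led by Cass4 had 195 and 42.3 CPM on 432 and 27 UMIs. In the cluster led by Cxcr2 the levels were 278 and 334 CPM. A neutrophil ratio near 1 thus joined clusters on both sides of 1, and at the aged cluster mix it was 1.38.

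The ligands were partly found in the same fibroblast-like cells. Of thinned cells with a Csf2 UMI, 13.8% of aged (10.6 to 17.6) and 27.4% of young (22.8 to 32.3) cells also had Csf3, against 8.68% (7.05 to 10.6) and 12.9% (11.1 to 14.9) of cells without Csf2. Csf1 was found in 41.5% (36.6 to 46.5) and 44.7% (39.5 to 50.1) of cells with Csf2 and in 36.1% (33.2 to 39.1) and 37.2% (34.5 to 40.0) of cells without. Of cells with a Csf1 UMI, 8.10% of aged and 22.1% of young cells had Csf3, against 11.3% and 12.4% of cells without it. Csf1 and Csf3 were thus found together more often in the young cells, whereas in the aged cells the intervals overlapped.

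Il34 was the scarcest ligand, with 669 UMIs in the aged and 757 in the young library. Fibroblast-like cells held 620 and 496 of them, at 8.03 and 6.97 CPM, with a ratio of 1.15 (1.02 to 1.3). In endothelial-like cells Il34 stood at 8.90 CPM in the aged and 38.8 CPM in the young library, but on 21 and 121 UMIs, and 2 of 72 young cells held 50% of the young UMIs. In mural-like cells Il34 had 3 UMIs in 5 aged cells and 82 UMIs in 23 young cells, 11.8 and 173 CPM, the highest young level in any class. Macrophage/monocyte-like cells had 4 and 1 UMIs, neutrophil-like cells 1 and 4, and dendritic-like and T/NK-like cells 0. Mural-like cells are too few in the aged library to set an order between the ages.

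**Figure D4:**
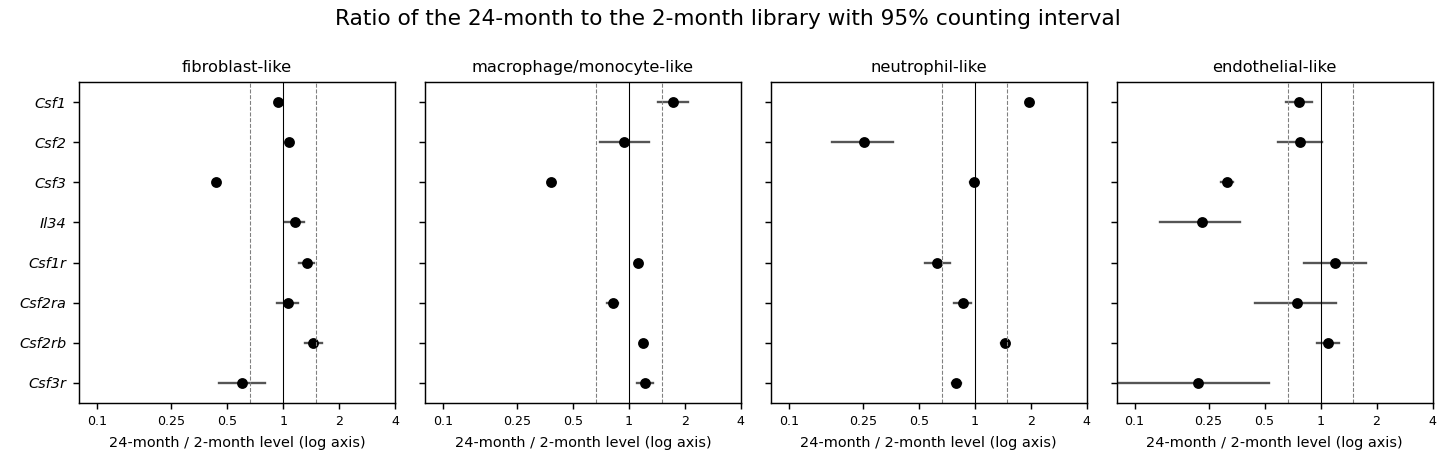
Aged to young ratio of the level of each gene (log axis) in 4 cell classes, with points for the ratio and lines for the 95% interval from counting error, for genes with 20 or more UMIs. The solid line marks 1 and the dashed lines 1.5-fold either way; Csf3 is lower by more than 1.5-fold in all classes but neutrophil-like cells, where Csf1 is higher at 1.97.

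Counted by class, the genes past 1.5-fold were few. In fibroblast-like cells 2 of 8 were lower, Csf3 and Csf3r, against a background of 8.61%, and none was higher, against 11.5%. Of the 7 genes with 20 or more UMIs in macrophage/monocyte-like cells, 1 was higher, Csf1, against 19.2%, and 1 was lower, Csf3, against 6.40%. In neutrophil-like cells 1 of 7 was higher, Csf1, against 18.2%, and 2 were lower, Csf2 and Csf1r, against 18.7%. The Csf1r ratio there stayed past 1.5-fold in 5 of 10 alternatives and ran from 0.561 to 0.869. The fibroblast Csf3r ratio stayed past it in 7 of 10 and the macrophage Csf1 ratio in 4 of 10. In endothelial-like cells 3 of 8 were lower, Csf3, Il34 and Csf3r, against 11.3%, and none higher, against 13.4%. The endothelial Csf3r ratio rests on 6 aged and 36 young UMIs. In T/NK-like cells 1 of 5 was higher, Csf2ra, against 24.0%, and 4 were lower, Csf1, Csf2, Csf3 and Csf2rb, against 19.4%, on 1 to 14 aged UMIs each.

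On the receptor side, Csf1r marked macrophages. Macrophage/monocyte-like cells held 74.9% of its aged and 66.8% of its young UMIs, at 347 CPM in the aged and 310 CPM in the young library, with a ratio of 1.12 (1.08 to 1.16). That ratio lay below the median of all genes in the class, and with TMM scaling it was 0.966, so no direction is given. Its level was highest in the cluster led by Ccl8, Cbr2 and Cd163, at 490 CPM in aged and 421 CPM in young cells. The clusters led by C1qa, by Arg1 and by H2-Aa stood between 312 and 326 CPM in aged and between 295 and 329 CPM in young cells. Among these macrophage clusters Csf1r was lowest in that led by Mmp12, the highest in Csf3, at 181 and 197 CPM. In thinned cells, Csf3 was found in 14.4% of aged (11.5 to 17.7) and 22.8% of young (18.5 to 27.7) cells with Csf1r, against 17.3% (14.4 to 20.6) and 30.8% (26.7 to 35.0) of cells without it.

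Csf1r in other classes was low. Neutrophil-like cells had 42.5 CPM in the aged and 67.3 CPM in the young library, with a ratio of 0.631 (0.540 to 0.734), and 10 young cells held 31.8% of the young UMIs. Fibroblast-like cells had 13.5 and 10.1 CPM, with macrophage/monocyte markers, 12 of 12 detected, at 112 and 116 CPM there, against 13447 and 15187 CPM in macrophage/monocyte-like cells. Dendritic-like cells had 11 UMIs in 47 aged and 8 UMIs in 24 young cells.

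Csf2ra, the alpha chain of the GM-CSF receptor, was spread evenly over the myeloid classes. It stood at 89.1 CPM in aged and 109 CPM in young macrophage/monocyte-like cells, with a ratio of 0.818 (0.763 to 0.877). Neutrophil-like cells had 99.2 and 115 CPM, with a ratio of 0.864 (0.778 to 0.958), and dendritic-like cells 86.8 and 118 CPM on 57 and 44 UMIs. Between these 3 classes the counting intervals overlapped in the young library. All 3 ratios were below 1, and in dendritic-like cells the interval of 0.489 to 1.12 includes 1. The Csf2ra ratio was lowest among these macrophage clusters in that led by Arg1, at 115.5 CPM in 355 aged and 169.5 CPM in 173 young cells, with a ratio of 0.681 (0.603 to 0.770). Fibroblast-like cells, which made the ligand, had 6.63 and 6.28 CPM of the alpha chain.

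Csf2rb, the shared signalling chain, was highest in dendritic-like cells and above its young level in aged neutrophil-like cells. Dendritic-like cells had 1090 CPM in the aged and 1006 CPM in the young library, with a ratio of 1.08 (0.955 to 1.23). Neutrophil-like cells had 502.5 and 347 CPM, with a ratio of 1.45 (1.38 to 1.52). Macrophage/monocyte-like cells had 456 and 381 CPM, with a ratio of 1.20 (1.16 to 1.24), close to the median of all genes in that class. The thinned share of neutrophil-like cells with a UMI was 53.2% of aged (49.8 to 56.5) and 41.5% of young (38.8 to 44.2) cells, against 2.27% and 2.44% of T/NK-like cells. The ratio was above 1 in each of the 3 neutrophil clusters with 100 or more cells, at 1.31 (1.20 to 1.43) in that led by Il23a, 1.90 (1.74 to 2.08) in that led by Cxcr2 and 1.46 (1.27 to 1.70) in that led by Cass4.

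The 2 chains of the GM-CSF receptor thus had ratios on opposite sides of 1 in neutrophil-like cells. They did so in macrophage/monocyte-like cells too, but the Csf2rb ratio there was close to the median of all genes. For dendritic-like cells the intervals of both chains include 1. For every UMI of Csf2ra there were 5.12 UMIs of Csf2rb in aged and 3.50 in young macrophage/monocyte-like cells, and 5.07 and 3.03 in neutrophil-like cells. Among macrophage clusters the Csf2rb ratio was 2.07 (1.91 to 2.25) in the cluster led by Mmp12, with 460 CPM in aged and 222 CPM in young cells, and 0.980 (0.919 to 1.05) in the cluster led by C1qa. The side nearer to Ly6c2 monocytes had 601 and 380 CPM, with a ratio of 1.58 (1.48 to 1.69), and the side nearer to C1q macrophages 423 and 382 CPM, with a ratio of 1.11 (1.07 to 1.15). As said above, the split rests in part on Chil3, which differed between the libraries, and its part here was not tested.

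Csf2rb was also found outside myeloid cells. Endothelial-like cells had 165 CPM in the aged and 151 CPM in the young library, on 389 and 471 UMIs in 39 of 53 and 50 of 72 cells. For every UMI of Csf1r they held 7.07 and 7.72 UMIs of Csf2rb, against 1.31 and 1.23 in macrophage/monocyte-like cells and 11.8 and 5.16 in neutrophil-like cells. Dendritic-like cells held 65.1 and 47 on the same measure. Macrophage/monocyte markers summed to 523 and 633 CPM in endothelial-like cells with 12 of 12 detected, and neutrophil markers to 38.6 and 507 CPM with 8 of 9 detected in both libraries. Dendritic cell markers summed to 275 and 212 CPM there, with 6 of 9 detected in both. The part of this RNA in the Csf2rb level of endothelial-like cells was not tested. In fibroblast-like cells Csf2rb stood at 11.7 and 8.07 CPM, and 10 cells held 39.0% of the aged and 37.9% of the young UMIs.

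Csf2rb2, the near copy, is no member of the set and is given to show that reads were told apart. The transcripts share 387 stretches of 91 bases, a usual length for reads of this kind, but none in the last 500 bases, where 3′ reads fall. It had 78.3 CPM in aged and 49.5 CPM in young neutrophil-like cells, with a ratio of 1.58 (1.39 to 1.80), the same direction as Csf2rb. In the fibroblast cluster led by Eln it had 67.3 and 22.5 CPM, with a ratio of 2.99 (2.67 to 3.35), with Csf2rb at 30.5 and 13.2 CPM in the same cells.

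Csf3r was chiefly a neutrophil gene. Neutrophil-like cells held 62.3% of its aged and 83.7% of its young UMIs, at 374 CPM in the aged and 470 CPM in the young library, with a ratio of 0.796 (0.756 to 0.839). The all-cell ratio of 0.487 went to 0.868 when the classes were held at the aged mix. Thinned shares of neutrophil-like cells with a UMI were 43.3% (40.0 to 46.7) and 48.8% (46.0 to 51.5), against 0.277% and 0.583% of fibroblast-like cells. Csf3r was highest in the cluster led by Cxcr2, Retnlg and S100a8, at 736 CPM in aged and 751 CPM in young cells, with a ratio of 0.980 (0.906 to 1.06). In the cluster led by Cass4 there were 308 and 506 CPM, with a ratio of 0.608 (0.532 to 0.696), and in that led by Il23a 228 and 263 CPM. The cluster with the highest Csf3r level thus had a ratio whose interval includes 1, and the Cass4 cluster that was highest in aged Csf1 had the lowest Csf3r ratio of the 3.

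Macrophage/monocyte-like cells also held Csf3r, at 57.6 CPM in the aged and 47.1 CPM in the young library, with a ratio of 1.22 (1.11 to 1.35). The clusters led by Ccl8 and by H2-Aa had the most, 87.8 and 86.1 CPM in aged and 90.6 and 85.9 CPM in young cells, while those led by Arg1 and by Mmp12 had 17.9 and 21.5 CPM in aged and 38.2 and 26.1 CPM in young cells. Within the first of these clusters the ratio was 0.969 (0.827 to 1.14) and within the second 1.0 (0.837 to 1.20). In fibroblast-like cells Csf3r had 86 and 132 UMIs, 1.11 and 1.85 CPM, and that ratio of 0.601 turned to 1.15 once the 4% of cells scoring highest for doublets were left out.

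Genes around the family were described by list, with the count of genes at least 1.5-fold apart and the median log2 ratio of log-scaled CPM with 1 CPM added. Of 12 cytokines known to induce Csf2 and Csf3, 10 had 20 or more UMIs in macrophage/monocyte-like cells, where 1 was higher, against 19.2% of all genes, and 6 were lower, against 6.40%, with a median log2 ratio of -0.63 against 0.21 for all genes. Il1a, an alarmin, had 507 CPM in aged and 1013 CPM in young cells, with a ratio of 0.501 (0.488 to 0.514). Tnf had 204 and 393.5 CPM, with a ratio of 0.518 (0.497 to 0.540). Tslp was the higher one, at 9.41 and 3.25 CPM, and Osm, of the interleukin 6 family, stood at 185 and 181 CPM. The lower ones were Il17a, Il1a, Il1b, Tnf, Il6 and Il33, with Il17a on 1 aged and 59 young UMIs and Il33 on 62 and 92. Neutrophil markers in these cells summed to 503 CPM in the aged and 987 CPM in the young library, and T/NK markers to 5.965 and 22.03 CPM. The part of this RNA in the counts of the lower genes was not tested.

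In neutrophil-like cells Tnf had 1047 CPM in the aged and 2351 CPM in the young library, with a ratio of 0.445 (0.432 to 0.459), while Il1b, a main product of these cells, was near level at 16193 and 17513 CPM. Of 8 inducers measured there, 1 was higher (Il18), against 18.2%, and 2 were lower, against 18.7%, with a median log2 ratio of 0.13 against 0.08. In fibroblast-like cells 6 of 12 inducers were lower, against 8.61%, and none higher, against 11.5%, at a median of -0.28 against 0.06. The lower ones were Il17a, Il17f, Il22, Il1a, Il1b and Tnf. Tnf had only 3.38 CPM in aged and 15.75 CPM in young cells of this class, and Il22 had 0 and 30 UMIs. In the same cells Il6, Lif, Il33, Tslp and Il18 had ratios from 1.13 to 1.44, and Osm had 0.945. Il17a had 1 aged and 994 young UMIs there and Il17f 3 and 238. T/NK markers, 10 of 11 detected in aged and 11 of 11 in young fibroblast-like cells, summed to 8.46 and 20.7 CPM. Neutrophil markers, with 9 of 9 detected, summed to 103 and 263 CPM there, and macrophage/monocyte markers, with 12 of 12 detected, to 112 and 116 CPM. The part of this RNA in the counts of the lower genes was not tested. Il33, an alarmin of stromal cells, had 1060 CPM in aged and 838 CPM in young fibroblast-like cells, with a ratio of 1.27 (1.25 to 1.28).

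Of 11 receptors for the inducers in fibroblast-like cells, none was 1.5-fold higher, against 11.5% of all genes, and 1 was lower, against 8.61%. The lower one was Il1rap, the accessory chain of the interleukin 1 receptor, at 22.9 CPM in the aged and 37.1 CPM in the young library, with a ratio of 0.617 (0.581 to 0.656). Il1rl1, the receptor of interleukin 33, had 1269 and 968 CPM, with a ratio of 1.31 (1.3 to 1.32). In macrophage/monocyte-like cells 1 of 10 was higher, against 19.2%, and none lower, against 6.40%. The higher one was Tlr4, the endotoxin receptor, at 92.3 and 50.4 CPM, with a ratio of 1.83 (1.68 to 2.00).

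Of 9 genes for the decay of AU-rich messages, 1 was lower, against 8.61%, and none higher, against 11.5%, in fibroblast-like cells, with a median log2 ratio of -0.30 against 0.06. Zfp36, whose product binds the ATTTA stretches shown above, had 267 CPM in aged and 434 CPM in young cells, with a ratio of 0.616 (0.605 to 0.627). Zc3h12a, a ribonuclease of cytokine messages, had 39.7 and 56.8 CPM, and Hnrnpd, another binder of AU-rich stretches, 117.5 and 86.3 CPM. In neutrophil-like cells Zfp36 was again lower, at 468 and 814 CPM, with a ratio of 0.575 (0.549 to 0.601). Macrophage/monocyte-like cells had Zfp36 at 559 and 588 CPM. None of the 9 was 1.5-fold higher there, against 19.2% of all genes, or lower, against 6.40%.

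Signalling genes downstream of the receptors stood near the background in macrophages. Of 15 JAK and STAT pathway genes in macrophage/monocyte-like cells none was 1.5-fold higher, against 19.2% of all genes, or lower, against 6.40%. Their median log2 ratio was 0.24 against 0.21. Stat3, used by the G-CSF receptor, had 318 CPM in the aged and 225 CPM in the young library, and Jak2, used by the shared beta chain, 274 and 267 CPM. In neutrophil-like cells 2 of 15 were higher, against 18.2% of all genes, and 2 lower, against 18.7%. Bcl2a1b, a survival gene, had 1320 and 785 CPM, with a ratio of 1.68 (1.63 to 1.74). Among 11 feedback genes in neutrophil-like cells 1 was higher, against 18.2%, and 3 were lower, against 18.7%. The higher one was Cish, a STAT5-induced inhibitor, at 56.7 and 34.4 CPM, with a ratio of 1.65 (1.41 to 1.92). Among macrophage/monocyte-like cells 1 of 11 feedback genes was higher, against 19.2%, and 1 lower, against 6.40%. The higher one was Inpp5d, a lipid phosphatase that dampens the receptors, and the lower one Socs1, a STAT-induced inhibitor.

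Genes known to depend on the CSF1 receptor were measured in macrophage/monocyte-like cells, where 5 of 16 were higher, against 19.2% of all genes, and 1 was lower, against 6.40%, with a median log2 ratio of 0.23 against 0.21. Of the 16, Adgre1, Mrc1, C1qa, C1qb, C1qc and Fcgr1 are also markers that named the class, so their levels rest in part on that naming. Their ratios ran from 0.983 to 1.49, so the genes past 1.5-fold are others. Folr2, a folate receptor of resident macrophages, had 313 CPM in the aged and 155 CPM in the young library, with a ratio of 2.02 (1.93 to 2.12). Cd163, the haemoglobin scavenger receptor, had 80.8 and 124 CPM, with a ratio of 0.652 (0.609 to 0.699). Trem2, a lipid receptor from a list of other receptors reported for interleukin 34, had 301 and 207 CPM, with a ratio of 1.46 (1.39 to 1.52). Of 15 myeloid transcription factors in these cells 5 were higher, against 19.2%, and none lower, against 6.40%, at a median log2 ratio of 0.53 against 0.21. Cebpa had 69.4 and 30.2 CPM, with a ratio of 2.30 (2.07 to 2.57), Fli1 132 and 64.5 CPM, and Maf 254.5 and 148 CPM, while Spi1, the factor that drives the receptor genes, had 332 and 356 CPM.

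Genes known to respond to GM-CSF did not move one way. In macrophage/monocyte-like cells 3 of 14 were higher, against 19.2%, and 4 were lower, against 6.40%, with a median log2 ratio of -0.03 against 0.21. Retnla had 135 CPM on 2348 UMIs in the aged and 0.715 CPM on 11 UMIs in the young library, with a ratio of 188 (105 to 378). Chil3 went the other way at 50.4 and 663 CPM, with a ratio of 0.0760 (0.0708 to 0.0814). The chemokine genes Ccl24 and Ccl17 had ratios of 3.8 (3.11 to 4.67) and 0.355 (0.274 to 0.456). In neutrophil-like cells Chil3 had 7.63 CPM on 39 UMIs in the aged and 386 CPM on 4476 UMIs in the young library.

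Of 15 genes tied to G-CSF and neutrophil maturation, 2 were higher in aged neutrophil-like cells, against 18.2% of all genes, and 6 were lower, against 18.7%, at a median log2 ratio of -0.22 against 0.08. Mmp8, the neutrophil collagenase, had 80.6 CPM in the aged and 412 CPM in the young library, with a ratio of 0.195 (0.176 to 0.216). Lcn2, an iron-binding granule protein, had 1553 and 3075 CPM, with a ratio of 0.505 (0.493 to 0.518), and Retnlg 1001 and 2341 CPM, with a ratio of 0.428 (0.415 to 0.441). Granule genes of earlier stages went both ways, with Ngp at 34.4 CPM in the aged and 59.1 CPM in the young library. Camp and Ltf were higher but scarce, at 9.0 and 28.8 CPM in aged and 4.91 and 16.1 CPM in young cells. The 9 neutrophil markers, all detected, summed to 55669 CPM in the aged and 86028 CPM in the young cells, and their part in these counts was not tested. Of these markers Cxcr2, Ly6g, Mmp9, Retnlg and Il1r2 are also in the list, so their levels rest in part on how the cells were named. Mmp9 and Retnlg are among the 6 lower genes.

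Of all genes with 200 or more UMIs, those whose log2 level followed each family gene most closely over 5 classes in 2 libraries (10 points, which share libraries and depths) are given as a description. Csf3r was followed by Cd33, Slc7a11 and Gk with Pearson r from 0.991 to 0.996, and Csf2ra by Syk, Itgam and Pla2g7 from 0.989 to 0.991. Il34 was followed by Mdfi, Ednra and Hoxb3os from 0.989 to 0.992, and Csf1r by Gm49249, Mdm2 and Apoc2 from 0.977 to 0.985. The shared chain and the ligands other than Il34 had looser company. Csf2rb was followed by Arf2, Rhbdf2 and Pik3cb from 0.971 to 0.974, Csf2 by Npas2, Lgalsl and Arf4 from 0.948 to 0.960, Csf1 by Egr1, Pde1a and Tmc4 from 0.948 to 0.951, and Csf3 by Ppp1r13l, Cdc42ep2 and Cdc42ep4 from 0.925 to 0.942.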

How the data were processed

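The authors deposited raw UMI counts for each gene in each barcode. Per the file headers the counting tool was Cell Ranger 8.0.1, whereas the submitters' processing notes give Cell Ranger 9.0 along with STAR, Seurat 4 and GRCm38 (mm10). The kit appears in the labels under versions 3 and 3.1. The files give no coordinates, and 31961 of their 33696 gene IDs, including all 8 genes of the set, are in GENCODE M21, from which locations and sequences were read. Barcodes with at least 500 UMIs, 200 genes and under 15% mitochondrial UMIs were kept. Each cell was scored on marker lists, and its class was that of the highest score if it was at least 0.1 with a lead of 0.05, thresholds set after the data were seen (97.96% of the 7979 cells also named by cluster had the same name). Clusters (Leiden, resolution 1, 2000 variable genes, 30 components, 15 neighbours, scanpy 1.11.5) left out the 8 genes and Csf2rb2.

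Counts were summed over the cells of a class and divided by the class total (CPM), with exact Poisson intervals for levels, exact Clopper-Pearson intervals for shares and exact conditional binomial intervals for ratios, at 95%. UMIs of 1 cell are not independent, so these are the least error possible. With 1 library per age no test was run. A gene was counted as apart at a ratio of 1.5 with 20 or more UMIs in all, and a count of 0 allows up to 3. Shares were compared after each cell with 2000 or more UMIs was thinned to 2000, and cells with fewer were left out of them. Shares before thinning cover all cells of a class. The calculations were tested on simulated data with scipy 1.17.1, and TMM factors came from edgeR 4.0.16 under R. Named genes are the 8 of the set, the 3 highest and 3 lowest ratios of a list in the class described, and the 3 closest genes for likeness. Some other list genes are named to spell out a count or an overlap with markers. The members, lists and markers were chosen with earlier results of these data known.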

Additional observations from a re-analysis of the deposited data

Results flagged for a closer look

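Among fibroblast-like, macrophage/monocyte-like, neutrophil-like, T/NK-like and endothelial-like cells, ratios of 5 genes lay on opposite sides of 1 in the same libraries, with intervals of counting error that exclude 1. No difference between classes was tested, since there is 1 library per age. Csf1 stood at 1.97 in neutrophil-like cells (905 CPM in aged and 460 CPM in young cells) and 0.768 in endothelial-like cells (108 and 140 CPM). Csf2 had 1.08 in fibroblast-like cells and 0.253 in neutrophil-like cells, the second on 33 aged and 296 young UMIs, but the first was 0.962 at the aged cluster mix, so its direction is not settled. Il34 had 1.15 in fibroblast-like cells and 0.229 in endothelial-like cells, the second on 21 and 121 UMIs. Csf1r had 1.34 in fibroblast-like cells, at only 13.5 and 10.1 CPM, and 0.631 in neutrophil-like cells. Csf3r had 1.22 in macrophage/monocyte-like cells and 0.220 in endothelial-like cells, the second on 6 and 36 UMIs. The first is read against a median log2 ratio of 0.21 for all genes in the class and was 1.03 in its lowest alternative. For the second, 2 of 72 young cells held 50% of the young UMIs. Neutrophil markers in endothelial-like cells summed to 38.6 CPM in the aged and 507 CPM in the young library, and their part was not tested.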

How the results depend on the processing

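No paired analysis was possible because each age has 1 library. Of the 8 ratios the report leans on, the 3 past 1.5-fold stayed past it under every alternative run: Csf3 in fibroblast-like cells (0.375 to 0.562), Csf3 in macrophage/monocyte-like cells (0.324 to 0.472) and Csf1 in neutrophil-like cells (1.73 to 1.98). Values outside the counting interval follow, in the order Csf3 fibroblast-like, Csf3 macrophage/monocyte-like, Csf1 neutrophil-like, Csf2rb neutrophil-like, Csf3r neutrophil-like, Csf1r macrophage/monocyte-like, Csf2 fibroblast-like and Csf1 fibroblast-like. TMM scaling gave 0.408, 0.330, 1.78, 1.31, 0.719, 0.966, 1.01 and 0.884. Median-of-ratios scaling gave 0.412, 0.326, 1.75, 1.29, 0.708, 0.952, 1.02 and 0.892. The mean over cells gave Csf3 0.375 and 0.408, Csf1r 1.02, Csf2 1.15 and fibroblast Csf1 0.984. Cluster names gave Csf3 0.324 in macrophage/monocyte-like cells and, in neutrophil-like cells, Csf1 1.86, Csf2rb 1.54 and Csf3r 0.735. The stricter gate gave Csf3 0.427, Csf1 1.88 and Csf2rb 1.54 in those classes. Without the 10 highest cells fibroblast Csf3 was 0.419, and without the top 4% of doublet scores it was 0.456 and Csf2 1.05. The aged cluster mix, an alternative chosen after seeing the data, gave Csf3 0.562 and 0.472, neutrophil Csf1 1.73 and Csf2rb 1.52, Csf1r 1.07, Csf2 0.962 and fibroblast Csf1 1.07. No cell filter and a stricter one moved none of the 43 ratios past its interval.

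Some ratios near 1 crossed it, as the values above show for Csf2 and Csf1 in fibroblast-like and Csf1r in macrophage/monocyte-like cells, and Csf3 in neutrophil-like cells ran from 0.882 to 1.38. Among low levels, fibroblast Csf3r was 1.15 without the top doublet scores and 1 at the aged cluster mix, macrophage Csf1 0.844 by cluster names, and in T/NK-like cells Csf2ra was 1.0 as a mean over cells, 0.986 by cluster names and 0 without the 10 highest cells, and Csf2rb 1.15 without the top doublet scores. The cause was not tested. Asking for a ratio of 2 moved 62 of 156 list counts by over 1.5 times, and TMM scaling 19. Depth limits Il34 and all values of T/NK-like, dendritic-like and mural-like cells.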
